A study of Rattus norvegicus with 39 samples.

Results

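The comparison described here is that of sperm small RNA from rats given 60 mg/kg/d of ethylene glycol monomethyl ether (EGME) with sperm small RNA from rats given the water vehicle. Libraries were taken by the prefix of their titles, which gave 9 libraries of the 60 mg/kg/d group (EGME60) and 10 of the vehicle group (EGME0), 19 of the 39 libraries in the series. All animals were wild-type adult male Fischer rats of 11 to 12 weeks, each dosed by oral gavage on 5 days, with sperm collected from the cauda epididymis 5 weeks later. Each library held the RNA of 1 male, so the spread between libraries is a spread between animals. The other libraries came from males given 50 mg/kg/d (EGME50, n = 10) or 75 mg/kg/d (EGME75, n = 10) on the same schedule. They are used here to place the 60 mg/kg/d group between its neighbouring doses, and in the shared estimate of the spread.

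EGME is a glycol ether solvent whose oxidation product, methoxyacetic acid, is toxic to spermatocytes. Mature sperm transcribe little or nothing, and their small RNA is a mixture of what germ cells made in the testis and what the sperm took up in the epididymis. miRNAs are short RNAs that guide Argonaute proteins to messenger RNAs, mainly through the seed, the bases numbered 2 to 8 from the 5′ end. Fragments of tRNAs are abundant small RNAs of cauda sperm, and piRNAs are germ cell RNAs that silence transposons. Whether sperm had been cleared of other cells before extraction is not given in the sources used here.

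Counts were deposited in 4 tables: mature miRNAs, tRNA genes, noncoding transcripts of the Ensembl annotation (the ncRNA table) and entries of the RNAcentral collection. Over the 4 tables a library held 714467 to 14442713 counts at EGME0 and 6889547 to 24308152 at EGME60. The difference in mean log10 depth was 0.20 (exact two-sided permutation p = 0.144, n = 10 and 9). The miRNA table was thin, with 1098 to 38208 counts per control library and 1990 to 37020 per EGME60 library. EGME0 replicate 33 and EGME60 replicate 6 had the fewest miRNA counts of their groups, and main counts of calls are also given without these 2 libraries. Libraries ran on chips, 5 of which held both groups, with 12 of the 19 libraries between them. Unless another test is named, values are log2 fold changes ± standard error from edgeR's quasi-likelihood test. The standard error was derived from the test, as the size of the log2 fold change over the square root of its F statistic. Features with too few counts were filtered out before testing. A feature is called higher or lower when its p, adjusted by the Benjamini-Hochberg method over the tested features of its table, was below 0.05. Levels are scaled counts (CPM), that is, counts relative to the scaled total of the feature's own table, in parts per 1000000, given as the lowest, median and highest library of a group.

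The mature sequences that the miRNA results turn on are shown first, with the seed in capitals and the rest in lower case. They are RefSeq's, on build GRCr8, which held 27 of the 33 miRNAs called. The first set shares 1 seed and holds the miR-34 and miR-449 family, whose members miR-34b, miR-34c and miR-449a are made at high level by spermatocytes and spermatids, while miR-34a is widely expressed.
miR-34b-5p: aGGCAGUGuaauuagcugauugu
miR-34c-5p: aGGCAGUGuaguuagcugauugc
miR-449a-5p: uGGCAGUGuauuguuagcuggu
miR-34a-5p: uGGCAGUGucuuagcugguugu
The opposite arms of miR-34b and miR-34c share a seed of their own and are the arms that passed the test.
miR-34b-3p: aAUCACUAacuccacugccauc
miR-34c-3p: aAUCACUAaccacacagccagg
The next set is the miR-17 seed, shown because its tested members all had negative log2 fold changes.
miR-17-5p: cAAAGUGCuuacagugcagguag
miR-20a-5p: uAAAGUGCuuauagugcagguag
miR-93-5p: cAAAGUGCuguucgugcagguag
miR-106b-5p: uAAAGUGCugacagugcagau
A pair with the miR-16 seed is shown because its members were called in opposite directions.
miR-16-5p: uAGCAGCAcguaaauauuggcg
miR-195-5p: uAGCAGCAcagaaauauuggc
The last set holds miRNAs that were higher at EGME60, with a different seed each.
miR-221-3p: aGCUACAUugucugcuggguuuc
miR-451-5p: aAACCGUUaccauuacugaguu
miR-205: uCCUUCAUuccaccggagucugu
miR-145-5p: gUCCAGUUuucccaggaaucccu
miR-10a-5p: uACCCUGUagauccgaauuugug
miR-23a-3p: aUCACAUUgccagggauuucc
miR-27a-3p: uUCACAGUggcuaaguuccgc
miR-24-3p: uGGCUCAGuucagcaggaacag

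Sperm miRNAs of the EGME60 males differed from control in both directions. Lower were the germ cell miRNAs miR-34b-3p, miR-34c-3p and miR-449a-5p, the proliferation miRNAs miR-17-5p and miR-20a-5p, and miR-16-5p. Higher were miRNAs known from epithelium, smooth muscle and blood, among others. Of 105 miRNAs tested, 33 (31.4%) passed, 21 higher (20%) and 12 lower (11.4%), and the median log2 fold change over all 105 was 0.11. No miRNA separated the groups completely (0% of 105). Among the calls, 2 of the higher miRNAs lay above the control median in all 9 EGME60 males, and 7 of the lower ones lay below it in all 9. With chip as a fixed block 28 were called, 24 of them among the 33. Without EGME0 replicate 33 and EGME60 replicate 6, 40 were called, 32 of them among the 33. Scaling by library totals alone gave 34 higher and 7 lower with the median at 0.50, so the split between directions depends on the scaling.

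**Figure D1:**
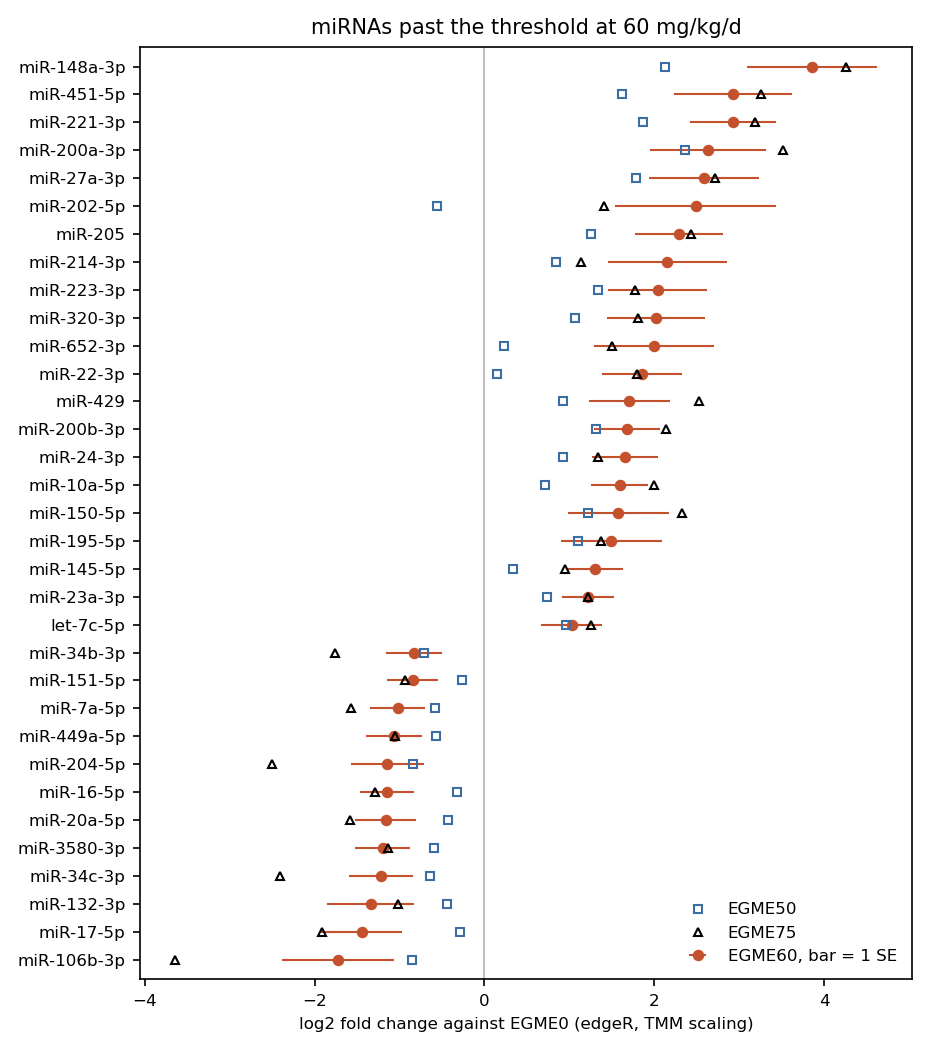
log2 fold change against EGME0 (x axis) of the 33 miRNAs called at 60 mg/kg/d (y axis); points and bars are EGME60 ± 1 standard error, squares EGME50 and triangles EGME75, all against the same controls. The EGME60 values run from -1.73 for miR-106b-3p to 3.85 for miR-148a-3p.

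The germ cell miRNAs miR-34b, miR-34c and miR-449a made up a smaller part of the miRNA table at EGME60. The 6 listed mature forms summed to a median of 26.3% of miRNA counts in the control libraries (19.8% to 33.1%) and 15.3% in the EGME60 libraries (10.9% to 28.1%). The share lay below every control in 7 of the 9 EGME60 males, while replicates 13 and 30 had 28.1% and 27.3%, within the control range. Of 5 forms tested, 3 were lower and 0 higher, with a median log2 fold change of -0.84, beside 11.4% lower and 20% higher of all 105. All 5 were counted in each of the 19 libraries, so markers of the germ line were present throughout, and miR-449c-5p had 0 counts in control and 5 at EGME60.

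miR-34b-3p was at 102932, 167343 and 293924 CPM in the control libraries. In the EGME60 libraries it was at 32039, 75700 and 202074 CPM, and 6 of the 9 lay below the lowest control. Its log2 fold change was -0.83 ± 0.33 (adjusted p = 0.0485), and the call was lost in 12 of the 19 fits that left out 1 library, with library totals, without a filter and in the fit of the 2 groups alone (adjusted p over all alternatives 0.00528 to 0.196). Its partner miR-34c-3p was at 19632, 49763 and 72901 CPM in control and 2811, 13131 and 56067 CPM at EGME60, with 6 EGME60 males below the lowest control (-1.22 ± 0.38, adjusted p = 0.0102). The call of miR-34c-3p was lost without EGME60 replicate 14, 22 or 38 and in the fit of the 2 groups alone (adjusted p over all alternatives 0.00118 to 0.0653). Both hairpins lie on chromosome 8, with miR-34c-3p at chr8:60306101-60306122 and miR-34b-3p at chr8:60306621-60306642, on the minus strand of GRCr8. For miR-449a-5p the levels were 18692, 38985 and 65529 CPM in control and 6283, 17665 and 29305 CPM at EGME60. There, 9 of 9 males were below the control median and 5 below the lowest control (-1.06 ± 0.33, adjusted p = 0.0102).

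The 5p arms of miR-34b and miR-34c did not pass. miR-34c-5p gave -0.84 ± 0.34 (adjusted p = 0.0501), with 9 of 9 EGME60 males below the control median, and miR-34b-5p gave -0.71 ± 0.36 (adjusted p = 0.122). Without the 2 thin libraries miR-34c-5p passed, at -0.90 (adjusted p = 0.0437). miR-34a-5p, which carries the same seed, gave 1.17 ± 0.57 (adjusted p = 0.102).

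The X-linked testis miRNAs, clusters expressed in spermatogenic cells, had 16 tested mature forms. Beside 11.4% lower and 20% higher of all 105, edgeR called 0 of these 16 at an adjusted p below 0.05. The chip block called 2 of them lower, RLE scaling 1 lower, the fit without the 2 thin libraries 1 lower and library totals 1 higher. Their median log2 fold change was -0.17, which turns to 0.24 when libraries are scaled by totals alone. Values ran from -1.40 (miR-743a-5p, adjusted p = 0.0708) to 1.36 (miR-871-3p, adjusted p = 0.0699), and the most abundant form, miR-741-3p, gave -0.75 ± 0.31 (adjusted p = 0.0501). Together they held a median of 6.09% of miRNA counts in control and 5.39% at EGME60. Whether their change differed from that of the miR-34 and miR-449a forms was not tested. miR-3580-3p, which was on no list, was lower, and RefSeq places it at chrX:150486426-150486447 on the minus strand of GRCr8, between the listed miR-871-5p (chrX:150478622-150478645) and miR-465-3p (chrX:150488177-150488198). It was at 13061, 18086 and 30003 CPM in control and 1948, 6614 and 17965 CPM at EGME60, with 7 males below the lowest control (-1.20 ± 0.32, adjusted p = 0.00284).

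Members of the miR-17 to miR-92a cluster and its paralogs, which promote proliferation in dividing cells, were lower or not called. Of 20 listed forms 10 were tested, 3 were lower and 0 higher, and the median was -0.89, where 11.4% of all tested miRNAs were lower. miR-17-5p was at 0, 6314 and 11914 CPM in control and 505, 2113 and 5096 CPM at EGME60. There, 9 of 9 males lay under the control median, while the control at 0 was the thin replicate 33 (-1.45 ± 0.47, adjusted p = 0.0146, and 0.0508 without EGME60 replicate 38). Its neighbour miR-20a-5p was at 5608, 24380 and 38941 CPM in control and 1948, 10441 and 21278 CPM at EGME60, again with 9 of 9 under the control median (-1.17 ± 0.36, adjusted p = 0.0102). RefSeq places them together on chromosome 15, at chr15:98587861-98587883 and chr15:98588318-98588340 on the plus strand of GRCr8. The third called form, miR-106b-3p, gave -1.73 ± 0.66 (adjusted p = 0.0392), lost its call under 5 of 8 alternative settings and in 13 of 19 fits without 1 library (adjusted p 0.00131 to 0.127). miR-18a-5p (-1.11, adjusted p = 0.0708), miR-19a-3p (-0.94, adjusted p = 0.0501) and miR-93-5p (-0.85, adjusted p = 0.0699) missed the threshold. All 10 values were below 0, except that scaling by library totals put miR-92a-3p and miR-25-3p just above it. Without the 2 thin libraries 5 of the forms were called lower.

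miR-16-5p, which restrains the cell cycle and is also high in red blood cells, was at 53273, 130797 and 291899 CPM in control and 39682, 56919 and 127455 CPM at EGME60. At that dose 9 of 9 males lay below the control median and 3 below the lowest control (-1.15 ± 0.32, adjusted p = 0.00405). miR-195-5p shares its seed and was called higher, from 0, 225 and 1709 CPM to 0, 599 and 5994 CPM (1.49 ± 0.60, adjusted p = 0.0473). That call was lost under 4 of 7 alternative settings, with the chip block among them, and in 8 of 19 fits without 1 library (adjusted p 0.0111 to 0.207). The other tested miRNA with this seed, miR-15b-5p, was not called (0.24 ± 0.53, adjusted p = 0.742). RefSeq held a sequence for 96 of the tested miRNAs, and seeds were compared among these only. Among them, 14 seeds were carried by 2 or more miRNAs. Of these seeds 7 had a call, and 1, the miR-16 seed, had calls in both directions.

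The remaining lower miRNAs were single members of other families. miR-7a-5p was at 16528, 38246 and 69288 CPM in control and 5622, 14593 and 50200 CPM at EGME60, with 7 males below the lowest control (-1.02 ± 0.33, adjusted p = 0.0129). miR-204-5p (-1.14, adjusted p = 0.0373), miR-132-3p (-1.34, adjusted p = 0.0392) and miR-151-5p (-0.85, adjusted p = 0.0259) were also lower, and each lost its call with chip as a block (adjusted p 0.138, 0.165 and 0.0511) and in 7, 9 and 3 of 19 fits without 1 library. Of the abundant miRNAs, miR-19b-3p (-0.45 ± 0.35) and miR-191a-5p did not pass. miR-191a-5p was at 84849, 114159 and 273716 CPM in control and 40954, 76884 and 615205 CPM at EGME60, where the highest value was that of replicate 6. Its log2 fold change was -0.10 (adjusted p = 0.850) with all libraries and -0.95 (adjusted p = 0.0242) without the 2 thin ones.

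**Figure D2:**
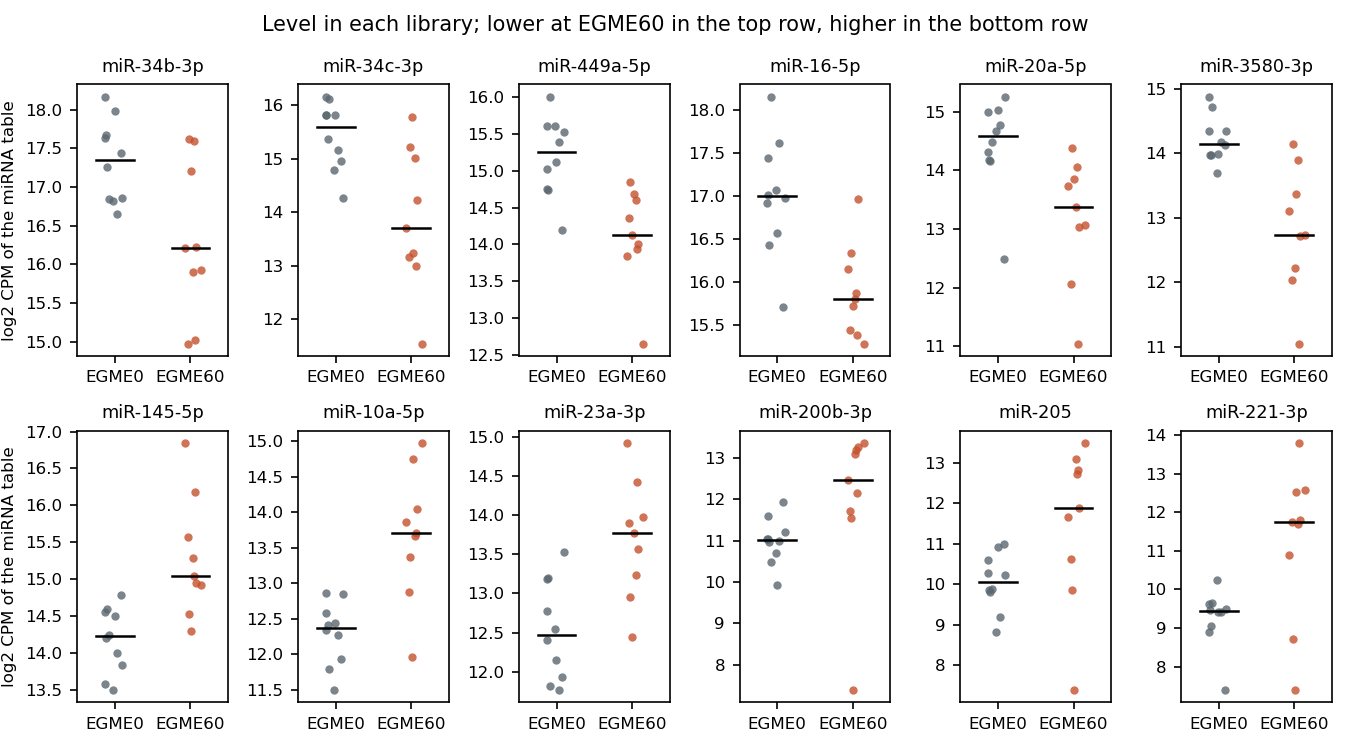
log2 CPM (y axis) of 12 called miRNAs in each EGME0 and EGME60 library (x axis); each point is 1 male and the bar is the group median. Top-row miRNAs were lower and bottom-row miRNAs higher at EGME60, and the groups overlap in every panel. A count of 0 is drawn at 7.39.

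Epithelial miRNAs took a larger part of the table in most EGME60 males. The list held the miR-200 family, which keeps cells epithelial by restraining ZEB factors, and the epidermal miR-203a and miR-205. Of 7 listed forms 6 were tested, 4 were higher and 0 lower, and the median was 1.69, where 20% of all tested miRNAs were higher. The summed share ran from 0.760% to 1.40% of miRNA counts in control, with a median of 1.04%. At EGME60 it ran from 0.251% (the thin replicate 6) to 4.45%, with a median of 2.41%, and 8 of 9 males were above the control median. miR-200b-3p was at 813, 1896 and 3738 CPM in control and 0, 5439 and 10251 CPM at EGME60, with 6 EGME60 males above the highest control (1.68 ± 0.39, adjusted p = 0.000955). miR-205 was at 282, 908 and 1869 CPM in control and 0, 3610 and 11243 CPM at EGME60, with 6 males above every control (2.29 ± 0.52, adjusted p = 0.000809). miR-429 (1.70 ± 0.48, adjusted p = 0.00465) and miR-200a-3p (2.63 ± 0.68, adjusted p = 0.00202) also rose. The most abundant form of the family, miR-200c-3p, was at 1869, 7464 and 12047 CPM in control and 1536, 8420 and 12322 CPM at EGME60 (-0.067 ± 0.32, adjusted p = 0.881). Its sign turned under scaling by library totals.

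Smooth muscle miRNAs gave 1 call of 2 tested, where 20% of all tested miRNAs were higher. miR-145-5p, a regulator of smooth muscle identity, was at 11370, 18968 and 28038 CPM in control and 19969, 33517 and 117275 CPM at EGME60. There, 9 of 9 males were above the control median and 7 above the highest control (1.30 ± 0.33, adjusted p = 0.00202). Its genomic partner miR-143-3p gave 1.08 ± 0.51 (adjusted p = 0.0883). The summed muscle list held a median of 1.67% of miRNA counts in control (0.954% to 3.37%) and 3.63% at EGME60 (1.31% to 11.7%). The striated muscle forms miR-1-3p, miR-133a-3p and miR-206-3p had 28, 173 and 11 counts in control, found in 1, 2 and 1 of the libraries. At EGME60 they had 0, 15 and 0 counts, those of miR-133a-3p in 2 libraries.

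Blood cell miRNAs were higher in most EGME60 males and stayed a small part of the table. The erythroid miR-451-5p was at 0, 369.6 and 887 CPM in control and 0, 1732 and 8102 CPM at EGME60, with 7 of 9 males above the highest control (2.93 ± 0.69, adjusted p = 0.00137). The myeloid miR-223-3p was at 0, 477 and 2543 CPM in control and 0, 3031 and 7513 CPM at EGME60 (2.04 ± 0.58, adjusted p = 0.00535). The lymphoid miR-150-5p also passed (1.57 ± 0.60, adjusted p = 0.0381), although not with the chip block (adjusted p = 0.0921) and not in 8 of 19 fits without 1 library. These were the 3 tested forms of 7 listed, and their median was 2.04, where 20% of all tested miRNAs were higher. The listed erythroid miR-486-5p was not in the miRNA table. Of the other defining forms, miR-144-3p had 0 counts in control and 2 at EGME60, miR-142-3p 5 and 7, and miR-142-5p 43 and 18. The list summed to a median of 0.114% of miRNA counts in control (0% to 0.343%) and 0.837% at EGME60 (0.0216% to 2.17%). In EGME60 replicates 6, 13 and 30 it was at 0.101%, 0.0216% and 0.168%, inside the control range.

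**Figure D3:**
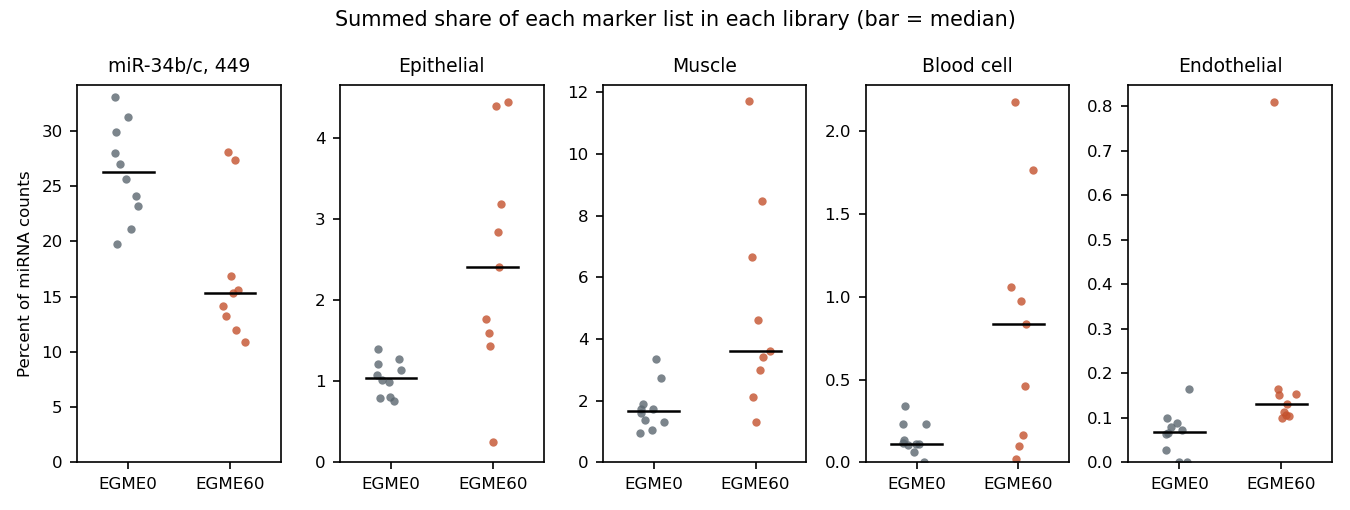
Summed share of miRNA counts, in percent (y axis), taken by 5 lists of marker miRNAs in each EGME0 and EGME60 library (x axis); each point is 1 male and the bar is the group median. The germ cell median goes from 26.3% to 15.3% and the epithelial median from 1.04% to 2.41%.

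Markers of other cell types were sparse. The endothelial miR-126a arms, which did not pass the filter on low counts, summed to a median of 0.0692% in control and 0.132% at EGME60, where the highest value, 0.809%, was that of replicate 29. miR-202-5p, a miRNA of the gonadal somatic cells, was called higher (2.49 ± 0.95, adjusted p = 0.0430), from 0, 147.9 and 1960 CPM to 0, 597 and 16428 CPM. That call was lost without a filter, with DESeq2, with the chip block (adjusted p = 0.359) and in 8 of 19 fits without 1 library. The liver miRNA miR-122-5p had 4 counts in control and 0 at EGME60, and the neuronal miR-124-3p was not called (-0.034, adjusted p = 0.952). In bulk RNA of this kind, fewer cells of a type and less RNA per cell cannot be told apart. The part of RNA from other cells in the miRNA calls was not tested.

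Further miRNAs were higher without belonging to a cell type list. miR-221-3p, which promotes proliferation by repressing cell cycle inhibitors, was at 0, 532 and 1034 CPM in control and 0, 3270 and 13935 CPM at EGME60. It lay above the highest control in 7 of 9 males (2.92 ± 0.51, adjusted p = 1.99e-05). The miR-23a cluster encodes miR-23a, miR-27a and miR-24, and all 3 mature forms were higher. miR-23a-3p went from 3310, 5531 and 11670 CPM to 5376, 13809 and 30834 CPM (1.22 ± 0.31, adjusted p = 0.00184). miR-24-3p gave 1.65 ± 0.39 (adjusted p = 0.000955) and miR-27a-3p 2.58 ± 0.64 (adjusted p = 0.00184). miR-23a-3p and miR-27a-3p lie on the minus strand of chromosome 19, at chr19:40859778-40859798 and chr19:40859614-40859634 of GRCr8, while RefSeq lists 2 loci for miR-24-3p. miR-10a-5p, encoded in a Hox cluster, went from 2725, 5147 and 7308 CPM to 3840, 13186 and 31911 CPM, above the highest control in 8 of 9 males (1.59 ± 0.33, adjusted p = 0.000337). miR-10b-5p was not called (0.52 ± 0.31, adjusted p = 0.175).

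Several calls rest on few counts. miR-148a-3p had the highest log2 fold change (3.85 ± 0.77, adjusted p = 0.000193) with 10 counts over all control libraries and 157 over all EGME60 libraries. miR-27a-3p averaged 10.7 counts per library and miR-652-3p (2.0 ± 0.71) 12.8. miR-320-3p (2.02 ± 0.58, adjusted p = 0.00517) and miR-214-3p (2.16 ± 0.71, adjusted p = 0.0159) averaged 18.3 and 27.9. The call of miR-652-3p was lost with DESeq2, with the chip block (adjusted p = 0.127) and in 3 of 19 fits without 1 library. That of miR-214-3p was lost with limma-voom and without EGME60 replicate 29, the highest library (adjusted p 0.00334 to 0.180 over all alternatives). miR-22-3p (1.86 ± 0.47, adjusted p = 0.00202) averaged 77.7 counts per library and let-7c-5p (1.03 ± 0.36, adjusted p = 0.0259) 204. let-7c-5p was the 1 called form among 8 tested let-7 members, whose median was 0.17, and its call was lost with the chip block (adjusted p = 0.0523) and in 5 of 19 fits without 1 library. edgeR called 0 of 4 tested miR-30, 0 of 1 miR-29 and 0 of 2 miR-26 forms. Beside these family counts, 31.4% of all 105 tested miRNAs were called. Of the 33 called miRNAs, 20 kept their call under each of the other settings that tested them and in all 19 fits that left out 1 library, 15 of the 21 higher and 5 of the 12 lower.

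The neighbouring doses stand beside these values, with the same controls. For miR-221-3p the log2 fold changes at EGME50, EGME60 and EGME75 were 1.87, 2.92 and 3.18. For miR-34c-3p they were -0.64, -1.22 and -2.41, and for miR-34b-3p -0.71, -0.83 and -1.76. For miR-16-5p they were -0.32, -1.15 and -1.29. miR-145-5p had 0.34, 1.30 and 0.94, and miR-202-5p -0.56, 2.49 and 1.41. Of the 33 miRNAs called at EGME60, 28 were also called in the same direction at EGME75 and 3 at EGME50. The sign was the same in 33 at EGME75 and in 32 at EGME50, where miR-202-5p was the exception (edgeR adjusted p = 0.783). These comparisons share the controls and are not independent. Tested directly with edgeR, EGME60 differed from EGME50 in 0 of 105 miRNAs (0%), with 14 at an unadjusted p under 0.05. DESeq2 called 3 and limma-voom 0 for that step. EGME75 differed from EGME60 in 0 of 105 by edgeR (0%, 8 unadjusted), 0 by DESeq2 and 0 by limma-voom.

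In the tRNA table the serine tRNAs were lower, and LysCTT, GluCTC, ThrAGT and TyrGTA, named by amino acid and anticodon, were among the higher ones. Counts do not show whether a read came from a whole tRNA or from a fragment of it. Summed by anticodon, 16 of 47 passed (34%), 8 higher (17%) and 8 lower (17%), with a median log2 fold change of 0.013. No anticodon separated the groups (0%). With chip as a fixed block 4 were called, all higher: LysCTT, ThrAGT, GluCTC and ValAAC. None of the 8 lower anticodons passed in that fit, which called 15 of 47 at an unadjusted p under 0.05. Without the 2 thin libraries 13 were called, 5 higher and 8 lower.

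All 4 serine anticodons were lower. SerGCT, which took a mean of 19.8% of tRNA counts, was at 161727, 254973 and 358250 CPM in control. At EGME60 it was at 57846, 165731 and 222049 CPM, with 4 males below the lowest control and 9 of 9 below the control median (-0.85 ± 0.25, adjusted p = 0.0128, and 0.0576 with the chip block). SerAGA (-0.65 ± 0.19) and SerTGA (-0.60 ± 0.18) also had 9 of 9 and 9 of 9 males below the control median, and SerCGA gave -0.53 ± 0.17. Serine tRNAs summed to a median of 30.6% of tRNA counts in control and 19.3% at EGME60. Among leucine anticodons LeuTAA (-0.80 ± 0.24) and LeuCAA (-0.74 ± 0.25) were lower and LeuAAG was higher (0.68 ± 0.27, adjusted p = 0.0417). LeuCAA lost its call without EGME0 replicate 1. LeuAAG lost its call in 12 of 19 fits without 1 library (adjusted p 0.0160 to 0.499 over all alternatives). IleAAT (-0.61 ± 0.20, adjusted p = 0.0182) and ArgTCT (-0.54 ± 0.19, adjusted p = 0.0208) were lower as well.

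Higher anticodons included GluCTC, a known source of tRNA fragments in sperm. LysCTT was at 1453, 2987 and 7046 CPM in control and 4950, 6576 and 20097 CPM at EGME60, with 9 of 9 males above the control median (1.39 ± 0.30, adjusted p = 0.00157). GluCTC was at 1705, 3622 and 9322 CPM in control and 5267, 9269 and 15385 CPM at EGME60, again with 9 of 9 above (1.11 ± 0.35, adjusted p = 0.0132). ValAAC went from 7110, 10204 and 11882 CPM to 7928, 14616 and 24309 CPM, with 7 males above every control (0.61 ± 0.17, adjusted p = 0.0128). The scarcer ThrAGT (1.28 ± 0.29, adjusted p = 0.00182) and TyrGTA (1.02 ± 0.31, adjusted p = 0.0128) also passed, as did AspGTC (0.48 ± 0.18, adjusted p = 0.0310). MetCAT, which joins initiator and elongator methionine tRNAs, was at 49083, 72381 and 104785 CPM in control and 70860, 87651 and 190292 CPM at EGME60 (0.55 ± 0.21, adjusted p = 0.0329). Its call was lost with the chip block and in 10 of 19 fits without 1 library (adjusted p 0.0103 to 0.179 over all alternatives), and that of ValAAC without EGME0 replicate 17 or EGME60 replicate 22. In the RNAcentral table, scaled on its own, some entries named tRNA-Met were lower (-1.18 ± 0.40, adjusted p = 0.0222, and -1.30 ± 0.48, adjusted p = 0.0447). An entry named tRNA-Val was lower too (-1.05 ± 0.39, adjusted p = 0.0453). Each of these calls was lost without a filter. The -1.30 and -1.05 calls were also lost with the chip block and kept in 6 and 8 of 19 fits without 1 library. Whether these entries share reads with the anticodon sums was not tested.

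The most abundant tRNA, GlyGCC, did not pass. It was at 169536, 254977 and 322432 CPM in control and 197068, 236517 and 372128 CPM at EGME60 (0.016 ± 0.15, adjusted p = 0.946). GlyTCC (-0.17 ± 0.18, adjusted p = 0.575) and GluTTC (0.41 ± 0.20, adjusted p = 0.137) were not called either. Of the 9 anticodons listed as sources of 5′ fragments in sperm, 3 were higher and 0 lower, with a median of 0.22, beside 17% higher and 17% lower of all 47. They summed to a median of 34.9% of tRNA counts in control and 43.4% at EGME60. The 3 called, LysCTT, GluCTC and ValAAC, took means of 0.60%, 0.70% and 1.28% of tRNA counts, and the uncalled GlyGCC 24.4%. Such a share is part of a whole and also moves when other tRNAs change, so it is no measure of a rise in these sources. Within lysine, LysCTT was higher while LysTTT was at -0.078 ± 0.20 (adjusted p = 0.832), and whether the 2 differ was not tested.

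**Figure D4:**
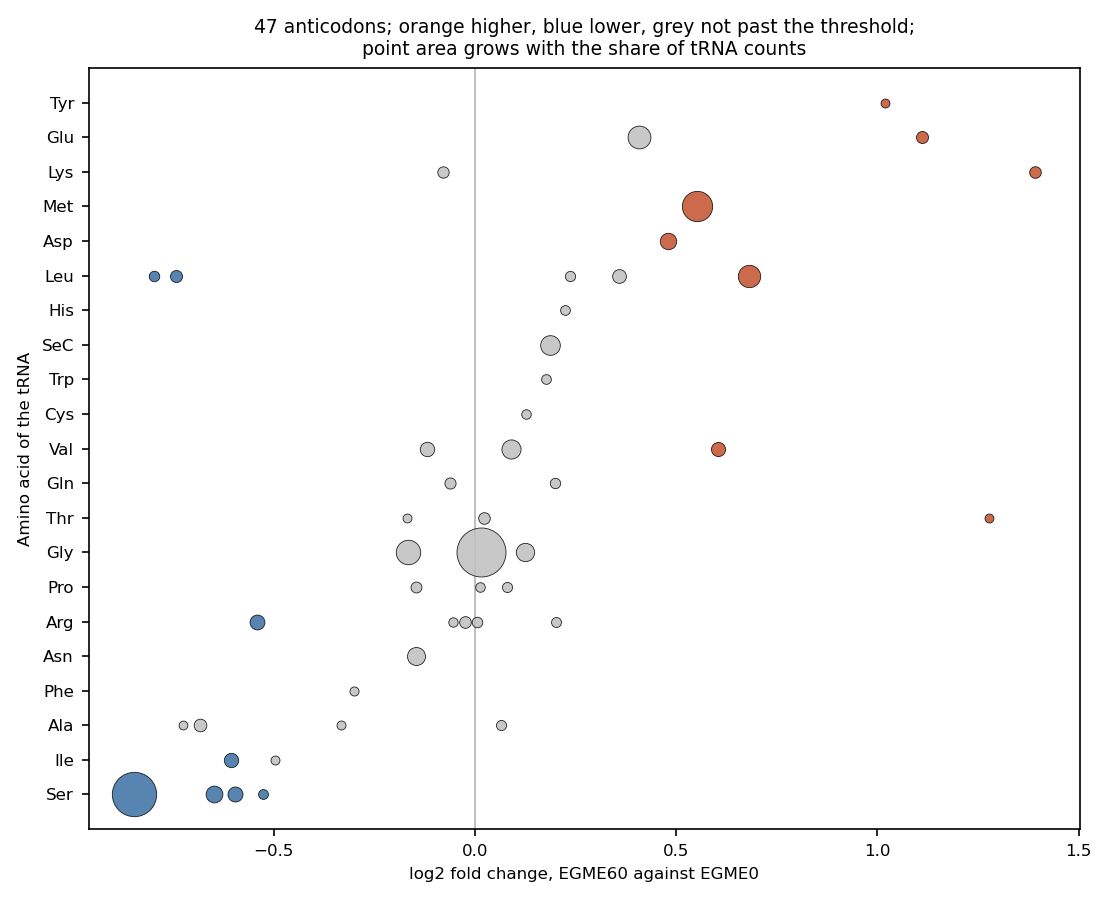
log2 fold change of EGME60 against EGME0 (x axis) of 47 anticodons, in rows by amino acid (y axis); orange is higher, blue lower and grey not past the threshold. The 4 serine points lie between -0.85 and -0.53, and GlyGCC lies at 0.016.

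Single tRNA genes were tested too, with the reserve that many gene copies cannot be told apart. Of 338 genes 107 were called (31.7%), 64 higher (18.9%) and 43 lower (12.7%), but the 107 hold 59 distinct patterns of counts. Library totals alone gave 79 higher and 29 lower. The chip block left 54, 44 of them higher, and leaving out EGME60 replicate 22 left 59. Lower calls were made in 8 of 8 SerGCT genes (6 patterns). Higher calls were made in 12 of 13 LysCTT genes (5 patterns), 9 of 10 GluCTC genes (3 patterns), 8 of 8 TyrGTA genes and 14 of 15 AspGTC genes (3 patterns). edgeR called 0 of 14 GlyGCC genes (2 patterns). The gene with the highest log2 fold change among those named, trna1087-GluTTC, was at 0, 0.826 and 1.44 CPM in control and 0.208, 3.12 and 8.91 CPM at EGME60 (2.0 ± 0.51, adjusted p = 0.00474). trna1635-SerGCT was at 31549, 54543 and 79649 CPM in control and 10124, 31347 and 44807 CPM at EGME60 (-0.92 ± 0.28, adjusted p = 0.0161), and its call was lost with the chip block (adjusted p = 0.0651) and without EGME60 replicate 22.

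Some serine and leucine tRNAs were lower at the step from EGME50 to EGME60 and again at that from EGME60 to EGME75. SerTGA was lower at EGME60 than at EGME50 (-0.60 ± 0.18, adjusted p = 0.0273) and lower at EGME75 than at EGME60 (-0.61 ± 0.18, adjusted p = 0.0150). For SerAGA the steps were -0.62 and -0.62 (adjusted p = 0.0273 and 0.0150), and for LeuTAA -0.82 and -0.63 (adjusted p = 0.0273 and 0.0398). ThrAGT went up by 0.87 and then by 1.26 (adjusted p = 0.0341 and 0.00514). Between EGME0 and EGME50 none of these was called. There the log2 fold changes were 0.0064 for SerTGA, -0.032 for SerAGA, 0.025 for LeuTAA and 0.40 for ThrAGT. In all, EGME60 differed from EGME50 in 6 of 47 anticodons (12.8%), 1 higher and 5 lower, and EGME75 from EGME60 in 14 (29.8%), 7 higher and 7 lower. Both steps share the EGME60 libraries. With chip as a fixed block edgeR called 0 in either step, with 11 and 9 at an unadjusted p under 0.05. The count for the step from EGME50 went from 0 (without EGME50 replicate 3) to 10 (without EGME50 replicate 36) when 1 library was left out.

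The makeup of the libraries differed as well. The RNAcentral table held 12.3%, 21.9% and 36.8% of a control library's counts (lowest, median and highest) and 24.7%, 33.7% and 60.6% of an EGME60 library's. In 9 of 9 EGME60 males the share was above the control median, and the means differed by 13.6 points (exact two-sided permutation p = 0.00404, adjusted over 4 shares p = 0.0162, n = 10 and 9). EGME60 was higher on 5 of 5 shared chips, by a mean of 6.13 points, with an exact within-chip permutation p of 0.0556 over 72 arrangements. The ncRNA share had a median of 10.7% in control and 4.24% at EGME60 (exact permutation p = 0.0509, adjusted p = 0.102; within chips p = 0.347). The tRNA share had a mean of 65.1% ± 9.99 in control and 56.6% ± 11.1 at EGME60 (SD, exact permutation p = 0.0945, adjusted p = 0.126, within chips 0.875). The miRNA share had a mean of 0.178% ± 0.073 and 0.118% ± 0.091 (SD, exact permutation p = 0.129, within chips 0.875). The shares add up to the whole library, so the 4 are not independent.

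Within the RNAcentral table most calls were upward, and ribosomal RNA led. Of 2757 entries tested 575 were called (20.9%), 559 higher (20.3%) and 16 lower (0.58%), with a median of -0.16. Under RLE scaling the table gave 443 higher and 89 lower with the median at -0.58, and under library totals 55 were lower with the median at -0.41. Of 235 rRNA entries 171 were higher and 2 lower, with a median log2 fold change of 3.28. With the chip block 163 were higher and 3 lower. Entries of rRNA made up a median of 42.3% of the table in control and 50.7% at EGME60. Small nucleolar RNAs, which guide modification of rRNA, had 16 of 32 entries higher (median 1.71), spliceosomal snRNAs 13 of 25 (median 1.50) and long noncoding RNAs 155 of 440, with 7 lower.

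A smaller share of piRNAs was called than of the whole RNAcentral table, where 20.3% were higher and 0.58% lower. Of 1401 piRNA entries 101 were higher and 1 lower, and their median was -0.31. They summed to a median of 3.94% of the table in control and 2.52% at EGME60. piR-rno-3792797 was at 0.771, 2.71 and 10.7 CPM in control and 2.38, 52.4 and 581 CPM at EGME60, with 7 males above the highest control (5.55 ± 0.81, adjusted p = 4.75e-06). piR-rno-647108 was at 1.29, 3.36 and 17.8 CPM in control and 3.72, 25.8 and 1147 CPM at EGME60, with 8 males above (5.49 ± 0.85, adjusted p = 4.75e-06). The 1 lower piRNA, piR-rno-36879, was at 3.66, 6.27 and 11.5 CPM in control and 0, 2.42 and 4.58 CPM at EGME60 (-1.56 ± 0.58, adjusted p = 0.0456). That call was lost with library totals, without a filter, with the depth covariate and in 12 of 19 fits without 1 library (adjusted p 0.00818 to 0.342 over all alternatives).

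**Figure D5:**
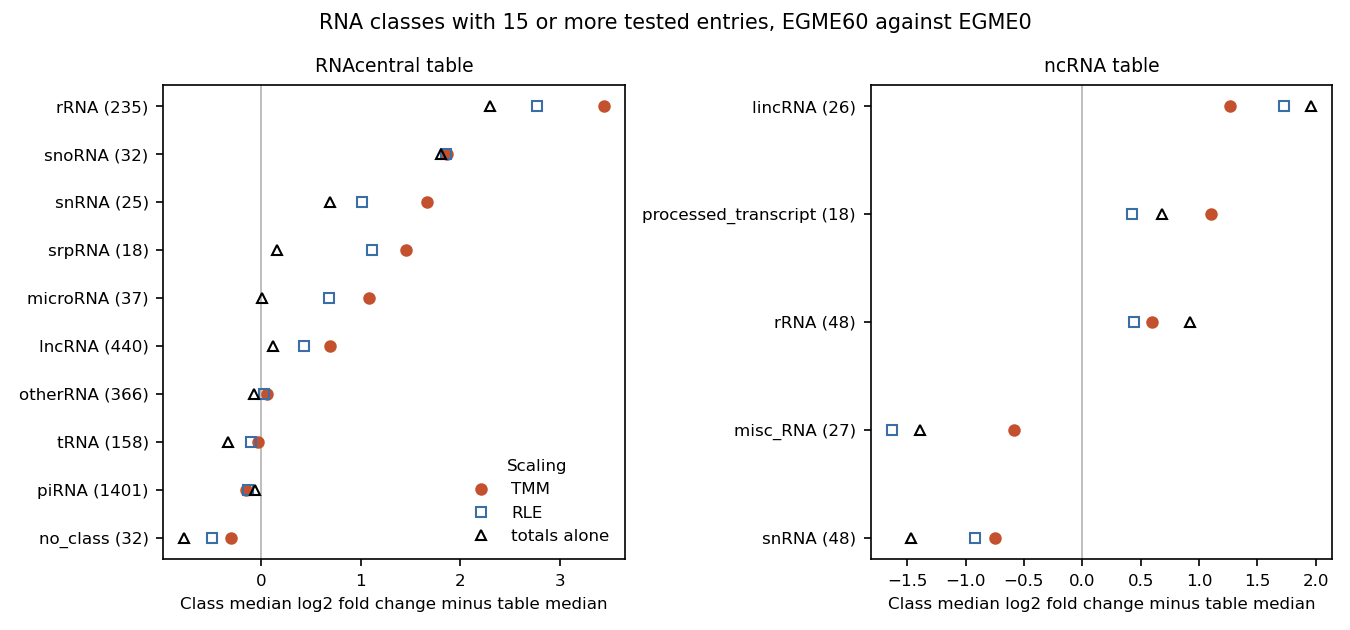
Median log2 fold change of each RNA class minus the median of its table (x axis), EGME60 against EGME0, for classes with at least 15 tested entries (y axis) under 3 scalings. In the RNAcentral table rRNA stands 3.44, 2.77 and 2.30 above the table's median under TMM, RLE and library totals.

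Among the noncoding transcripts of Ensembl, 49 of 174, with 40 distinct patterns of counts, were called (28.2%), 41 higher (23.6%) and 8 lower (4.6%). The 2 mitochondrial rRNAs took a median of 99.5% of the counts in control and 97.6% at EGME60, and the calls depend on the scaling. The more abundant one, ENSRNOT00000069133, was lower (-1.81 ± 0.58, adjusted p = 0.0165), with 6 of 9 males below every control. Its call was lost with library totals, where the log2 fold change was -0.11, in the fit of the 2 groups alone and without EGME60 replicate 5, 22 or 38 (adjusted p 0.000129 to 0.149 over all alternatives). RLE scaling gave 84 higher and 1 lower, and library totals 170 and 0. The fit without the 2 thin libraries gave 43 higher and 36 lower, and that without EGME60 replicate 22 called 110. Changes of classes are therefore given against the median of the table, which was 0.39 with TMM, 1.43 with RLE and 4.03 with totals. Long intergenic RNAs stood 1.27, 1.73 and 1.96 above it, with 10 of 26 called higher under TMM. Transcripts of rRNA biotype, listed apart from the mitochondrial ones, stood 0.60, 0.45 and 0.92 above it, with 19 of 48 higher, which hold 12 distinct patterns of counts. The snRNAs stood at -0.75, -0.92 and -1.47 against it, with 0 of 48 higher and 2 lower. Their counts repeat: a row with a log2 fold change of -0.35 has the same counts as 10 others, and a row at -0.21 as 8 others. Without the median subtracted, snRNA values ran from -1.46 (called lower) to 2.05 (adjusted p = 0.0714, not called). In the RNAcentral table, scaled on its own, snRNA entries were among those called higher. ENSRNOT00000073510, a transcript of miRNA biotype, was at 0, 2.92 and 22.9 CPM in control and 6.12, 63.1 and 251 CPM at EGME60, with 9 of 9 males above the control median (3.31 ± 0.57, adjusted p = 9.07e-05). This value is not set against the median, and over the alternatives it ran from 2.75 to 7.97, with the call kept in each that tested it.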

How the data were processed

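Small RNA of rat sperm, 1 male per library, was sequenced on Ion Torrent chips from 10 ng of RNA. The authors deposited whole-number read counts per feature in 4 tables: 405 mature miRNAs, 402 tRNA genes, 1563 Ensembl noncoding transcripts and 78572 RNAcentral entries. FastQC, Bowtie and DESeq2 are named without versions, per the submitters' processing notes, and the names of all deposited tables but that of miRNAs carry the rat build label Rnor_6_0. How reads with several matches were counted is not given in the sources used here, and rows with identical counts (213 of the tRNA genes) may be copies of 1 measurement.

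From the counts, each table was fitted with edgeR 4.0.16 (R 4.3.3), with TMM scaling, filterByExpr and a robust quasi-likelihood test. All 39 libraries shared 1 estimate of the spread. Benjamini-Hochberg adjustment was made over the features of a table that filterByExpr kept. Scripts were tested on simulated data. tRNA genes were summed to 49 anticodons, leaving out 2 rows with none known. Table shares were compared by exact two-sided permutation over 92378 arrangements (numpy 2.4.6). Alternatives were RLE and total scaling, no filter, DESeq2 1.42.0, limma-voom (limma 3.58.1), a chip block, a depth covariate, the 2 groups alone and each library left out. Leaving out the thinnest library of each group was chosen after seeing the data. Named features are the called ones with the highest and lowest log2 fold changes, averaging at least 10 counts per library, plus the most abundant and the members of lists. miR-34a-5p, miR-15b-5p and some called features outside these ranks are also named, chosen after their values were seen. The members and lists were chosen with earlier results of these data known.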

Additional observations from a re-analysis of the deposited data

Results flagged for a closer look

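Of 160 groups of values examined, 19 had a library far from the rest of its group, that is, a gap to its neighbour that is large against the group's whole range (Dixon's ratio at the 95% level). Chance alone would be expected to do this in about 1 group in 20. The ratio is given with the library's value and the range of its group's other libraries. On the log2 CPM scale a miRNA count of 0 appears as 7.39, a floor set by the prior count of 2 added before the logarithm. The -1.61 of trna1087-GluTTC below is also a count of 0. Ratios that use such a value depend on that setting.

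EGME0 replicate 33, the control with the fewest counts, accounts for 10 of the 19. Its log10 depth stood low (5.85 against 6.75 to 7.16, ratio 0.687). On the log2 CPM scale it was low for miR-17-5p (7.39 against 11.96 to 13.56, ratio 0.740), miR-20a-5p (12.50 against 14.16 to 15.25, ratio 0.604), miR-151-5p (12.90 against 13.63 to 14.26, ratio 0.538) and miR-221-3p (7.39 against 8.89 to 10.23, ratio 0.529). It was high for miR-204-5p (14.05 against 11.75 to 12.89, ratio 0.503) and miR-429 (11.93 against 9.18 to 10.30, ratio 0.593). Among tRNA features it was low for trna1087-GluTTC (-1.61 against -0.44 to 0.82, ratio 0.481), trna14184-ThrAGT (1.48 against 2.77 to 3.46, ratio 0.652) and an RNAcentral entry named tRNA-Met (2.12 against 4.11 to 6.06, ratio 0.505).

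EGME60 replicate 6, with the fewest miRNA counts of its group, accounts for 5. It was high for miR-191a-5p (19.23 against 15.33 to 16.34, ratio 0.742), miR-106b-3p (12.62 against 7.39 to 9.65, ratio 0.568) and GluTTC (17.03 against 15.07 to 15.72, ratio 0.669). It was low for miR-200b-3p (7.39 against 11.54 to 13.35, ratio 0.696) and miR-22-3p (7.39 against 11.91 to 14.39, ratio 0.647). The other 4 were the ncRNA share, in percent, of EGME0 replicate 25 (23.9 against 7.36 to 14.9, ratio 0.545) and of EGME60 replicate 13 (19.9 against 0.943 to 9.71, ratio 0.537), miR-449a-5p in EGME60 replicate 22 (12.65 against 13.84 to 14.85, ratio 0.543) and miR-652-3p in EGME0 replicate 26 (11.50 against 7.39 to 9.48, ratio 0.492).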

How the results depend on the processing

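No paired analysis was possible because no replicate number occurs in more than 1 group, and the matching at hand was that by chip, used as a fixed block and within chips. Calls between EGME60 and EGME0 by setting were as follows. The miRNA count of 33 became 61 without a filter and 19 with the 2 groups alone. The anticodon count became 4 and the tRNA gene count 54 with the chip block. The ncRNA count became 85 with RLE, 170 with totals, 153 without a filter, 86 with DESeq2, 14 with the 2 groups alone and 79 without the 2 thinnest libraries. The RNAcentral count became 2348 without a filter and 284 with the 2 groups alone. Between EGME60 and EGME50, 0 miRNA calls became 4 with RLE, 3 with DESeq2, 2 with the depth covariate, and 1 with totals, without a filter or with the 2 groups alone. There, 6 anticodon calls became 0 without a filter, 0 with the chip block and 3 with the 2 groups alone. Between EGME75 and EGME60, 0 miRNA calls became 4 without a filter, and 14 anticodon calls became 0 with the chip block and 8 with the 2 groups alone. Leaving out 1 library gave 24 to 42 miRNA, 12 to 19 anticodon, 59 to 115 tRNA gene, 44 to 110 ncRNA and 531 to 652 RNAcentral calls. For the step from EGME50 it gave 0 to 5 miRNA and 0 to 10 anticodon calls. The tRNA share difference turned to 5.31 points when the total excluded RNAcentral. The ncRNA share passed as a log2 ratio to the other tables (-1.22) and as a difference in medians (-6.50 points), and ranged from -6.65 to -3.70 points when 1 library was left out. The RNAcentral difference no longer passed as a ratio to the tRNA table (34.1) or within chips (6.13 points). Values near 0 changed sign. miR-191a-5p went to 0.15 with RLE, 0.019 without a filter, 0.20 with the 2 groups alone and -1.01 to 0.24 with 1 library left out. miR-200c-3p went to 0.30 with totals, 0.11 with the 2 groups alone and -0.30 to 0.065 with 1 library left out. The same omission gave -0.041 to 1.08 for miR-203a-3p and -0.13 to 0.050 for GlyGCC, which was -0.038 without the 2 thinnest libraries. With totals miR-25-3p was 0.14, miR-92a-3p 0.038 and the misc_RNA transcript ENSRNOT00000086005 1.25. The cause of these changes was not tested. With 1098 counts in the thinnest miRNA library, scarce miRNAs are read from few counts.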
